A study of Ovis aries with 6 samples.

Results

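The cathelicidins BAC5, CATHL1B, CATHL3 and SC5 and the iron-binding protein lactoferrin (LTF) were followed on single-colour Agilent sheep arrays of skin. Members were all non-control probes whose accession in the scanner files is a sheep RefSeq mRNA of one of these 5 genes, whatever their values. The rule found 7 probes, 2 each for BAC5 (NM_001009787) and CATHL1B (NM_001009772) and 1 each for CATHL3 (NM_001009301), SC5 (NM_001009406) and LTF (NM_001024862). They are 5 of the 476 genes with a symbol and 7 of 15008 non-control probes. The other probes include 14274 that matched no gene symbol, so further probes for these genes may be among them.

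Full-thickness skin was taken from 3 Aohan fine wool sheep of 12 months, 1 ram and 2 ewes sharing a father, with no treatment named in the labels. The wool-bearing body side gave 3 samples and the groin, which bears no wool, gave 3, each on 1 array. Replicate 1 is the ram at both sites, and replicates 2 and 3 are ewes. The title of the series places the comparison in the study of wool in its growth phase. Whole skin mixes epidermis, follicles, glands, dermis, vessels and immune cells, so a change in the number of cells of a type and a change in RNA per cell cannot be told apart.

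Cathelicidins are host defence proteins stored as precursors, mainly in the granules of neutrophils. Each precursor has a conserved cathelin domain and a variable C-terminal peptide that is cut off to become the microbicidal part. In ruminants these peptides include the proline-rich bactenecins, a cyclic dodecapeptide and the helical SMAP-29. Lactoferrin is an iron-binding protein of neutrophil granules and of glandular secretions such as milk and tears, and it withholds iron from microbes. RefSeq's gene table for ARS-UI_Ramb_v3.0, a sheep assembly, places the 5 genes on 1 chromosome. No protein-coding gene lies between CATHL3 and BAC5 or between BAC5 and SC5, 1 lies between CATHL1B and CATHL3, and 30 lie between SC5 and LTF. Coordinates are left out, since the build behind the array is not named. Probe sequences were not used here, and whether a probe can also bind the transcript of another cathelicidin was not tested.

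The body side arrays were dimmer than the groin arrays. The 75th percentile of the processed signal (the spot brightness after background and trend correction) lay between 1103 and 2048 for body side and between 3677 and 4401 for groin. The log2 difference was -1.57 (two-sided p = 0.1 by exact permutation, which cannot go lower with 3 arrays a site). Levels are therefore given on 2 scales, the processed signal itself and a scaled level, which takes that signal relative to the 75th percentile of its own array on the log2 scale. All groin arrays share 1 scan and all body side arrays share a different one, so that scan and site cannot be told apart. Of 13278 tested probes, limma called 4918 higher and 4361 lower on the body side, so that 53.0% of calls were higher. That share was 68.6% with normexp background correction, 68.5% with median centring and 1.98% without scaling. As a check of the tissue, all 4 tested genes of a hair follicle and epidermis list (KRT25, KRT27, KRT35 and PADI3) were well above background on all 6 arrays. All 4 were called higher on the body side, by 1.94 to 4.72 on the log2 scale, and their differences were above 0 without scaling too (0.37 to 3.15).

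CATHL3 and LTF gave strong signals at both sites. Their unscaled signals were lower on every body side array than on any groin array. Without scaling 9412 of 13278 tested probes were called lower on the body side, and the median difference of all tested probes was -1.47. Neither CATHL3 nor LTF passed the test after scaling to the 75th percentile. CATHL3 was called lower on the body side under some other scalings, given with its values. The probes of SC5, BAC5 and CATHL1B gave weak signals, and 4 of these 5 probes were higher on the body side after scaling, by 2.18-fold to 2.36-fold, as were 37.0% of all tested probes. Their unscaled signals did not differ in that direction. On the same scale the negative control spots, which match no sheep transcript, were also higher on the body side, by 1.62 on the log2 scale.

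**Figure D1:**
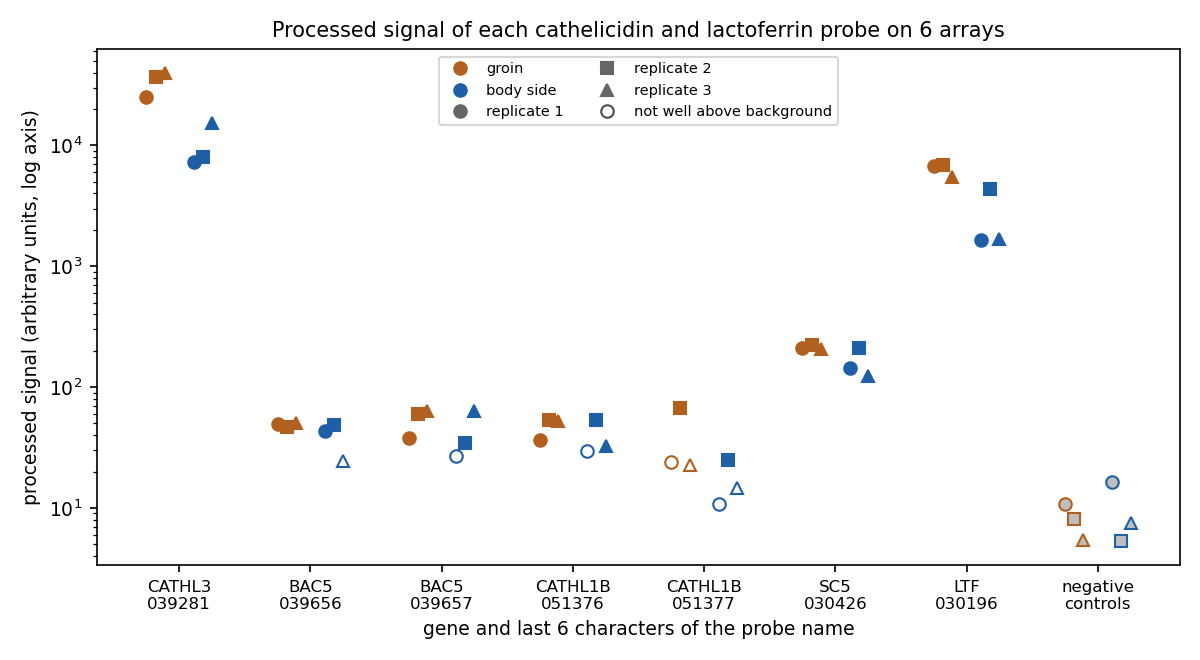
Processed signal (log axis) of the 7 probes on the 3 groin and 3 body side arrays, with 1 point per array and open points where the probe was not well above background; grey points are the 95th percentile of the 77 negative control spots of each array. CATHL3 and LTF sit lower on every body side array than on any groin array. The signals of SC5, BAC5 and CATHL1B overlap between the sites. Without scaling 9412 of 13278 tested probes were called lower on the body side.

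CATHL3, also listed as BAC7.5, encodes the precursor of a proline-rich bactenecin. Its probe A_70_P039281 was well above background on all 6 arrays. The processed signal was 24902, 37109 and 39928 on groin arrays 1, 2 and 3 and 7295, 8059 and 15404 on body side arrays 1, 2 and 3. Every body side array was therefore below every groin array before scaling, by 3.44-fold on average. The scaled levels were 2.76, 3.15 and 3.18 in the groin and 2.73, 1.98 and 3.77 on the body side. On this scale the groups overlapped, with the lowest and the highest of the 6 values both on the body side.

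CATHL3 averaged 2.82 ± 0.90 for body side and 3.03 ± 0.24 for groin after scaling (SD, n = 3 each). The log2 difference, body side minus groin, was -0.21 ± 0.40 SE with a 95% interval from -1.13 to 0.71 (limma adjusted p = 0.658). The 3 body side animals spanned 3.46-fold on the scaled level and the 3 groin samples 1.34-fold. The scanner software gave every reading of CATHL3 and LTF an error of about 10% of its signal. With 1 spot per array, the spread between spots of the CATHL3 probe was not measured.

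The call on CATHL3 depended on how the arrays were scaled. With quantile normalization the difference was -1.15 ± 0.37 SE (limma adjusted p = 0.0272), with cyclic loess it was lower too (adjusted p = 0.0312), and in the authors' deposited log2 values it was -1.14 (adjusted p = 0.0250). Without scaling it was -1.78 (adjusted p = 0.00133), with median centring it was 0.25, and with normexp it was -0.35. Over all alternatives the adjusted p ran from 0.00133 to 0.825. Leaving out body side replicate 2 turned the difference to 0.22, and leaving out body side replicate 3 gave -0.68 (adjusted p = 0.0636). Among the 1328 probes in the brightest of 10 equal groups by mean scaled level, where CATHL3 lay, the median difference was 1.14 and 92.4% had a larger difference than CATHL3.

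LTF encodes lactoferrin. Its probe A_70_P030196 was well above background on all 6 arrays. The processed signal was 6705, 6875 and 5472 on groin arrays 1, 2 and 3 and 1657, 4334 and 1670 on body side arrays 1, 2 and 3. Before scaling the groups did not overlap, and body side replicate 2 lay nearest to the groin. That array was also the brightest of the 3 body side arrays.

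After scaling, the levels of LTF were 0.87, 0.72 and 0.31 in the groin and 0.59, 1.08 and 0.56 on the body side, and the groups overlapped. Body side averaged 0.74 ± 0.29 and groin 0.63 ± 0.29 (SD, n = 3 each). The log2 difference was 0.11 ± 0.22 SE with a 95% interval from -0.40 to 0.62 (limma adjusted p = 0.671). LTF did not pass under any alternative other than no scaling. There its difference was -1.46 (limma adjusted p = 0.00690), and the median of all tested probes was -1.47. Its sign turned with quantile normalization (-0.12), cyclic loess (-0.22) and the authors' deposited log2 values (-0.16), none of which passed. Of the 1328 probes of like brightness, 56.2% had a larger difference, with a median of 0.25.

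SC5 encodes the precursor of SMAP-29, an alpha-helical peptide of sheep myeloid cells. Its probe A_70_P030426 was printed 5 times on each array, which gives a view of the error within an array. The mean processed signal of the spots without an outlier flag was 211, 221 and 207 on groin arrays 1, 2 and 3 and 144, 212 and 124 on body side arrays 1, 2 and 3. Body side replicate 2 thus matched the groin arrays, and body side replicates 1 and 3 lay below all of them. All 6 arrays read the probe well above background, with a spot 4.28 to 6.23 times as bright as its local background.

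Within an array the used spots of SC5 ran from 94 to 206 on body side replicate 1, the widest range, and from 199 to 227 on body side replicate 2. The SD over spots was 0.42 on the log2 scale on body side replicate 1 and between 0.098 and 0.17 on the other 5 arrays. For the 49 other probes with 5 spots, the median SD was 0.24 on body side replicate 1. An outlier flag removed 1 spot on each of 3 arrays, and on body side replicate 3 that spot was the brightest, at 193. Keeping the flagged spots left the site difference at 1.14 (limma adjusted p = 0.000684), an alternative chosen after seeing the data.

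**Figure D2:**
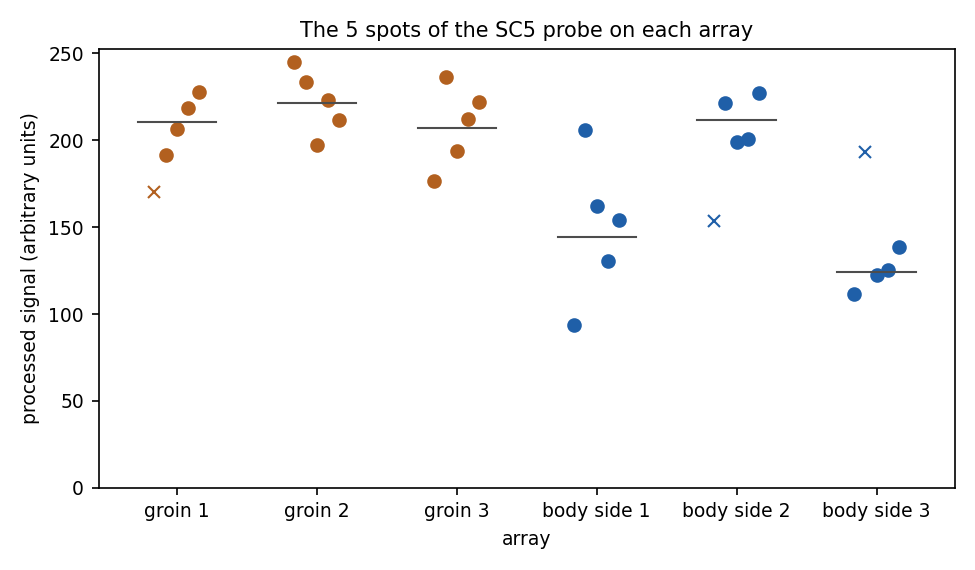
Processed signal of the 5 spots of the SC5 probe on each array, in brown for groin and blue for body side; crosses are spots with an outlier flag, which were left out, and lines are the means on the log2 scale used for each array. The lines lie between 207 and 221 in the groin and at 144, 212 and 124 on the body side.

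The scaled levels of SC5 were -4.13, -4.24 and -4.41 in the groin and -2.93, -3.27 and -3.19 on the body side. All body side values were above all groin values on this scale. The log2 difference was 1.13 ± 0.17 SE, or 2.18-fold (limma adjusted p = 0.000638), from means of -3.13 ± 0.18 and -4.26 ± 0.14 (SD, n = 3 each). Without scaling it was -0.45 and did not pass (adjusted p = 0.198). The call held under the other alternatives run, at 1.03 to 1.58.

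BAC5, also listed as CATHL2, encodes the precursor of another proline-rich bactenecin. Its probe A_70_P039656 gave processed signals of 49.9, 46.6 and 50.3 on groin arrays 1, 2 and 3 and of 42.9, 48.1 and 24.5 on body side arrays 1, 2 and 3. Only on body side replicate 3 was it not well above background. The second probe, A_70_P039657, gave 38.1, 60.3 and 62.9 in the groin and 26.9, 34.3 and 63.0 on the body side, and it was not well above background on body side replicate 1. The 2 probes thus put different body side arrays lowest, replicate 3 by the first and replicate 1 by the second.

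The scaled levels of BAC5 probe A_70_P039656 were -6.20, -6.48 and -6.45 in the groin and -4.68, -5.41 and -5.53 on the body side. The groups did not overlap, and the difference was 1.17 ± 0.24 SE, or 2.25-fold (limma adjusted p = 0.00284). Those of probe A_70_P039657 were -6.59, -6.11 and -6.13 against -5.36, -5.90 and -4.16, a difference of 1.14 ± 0.40 SE (adjusted p = 0.0323). The call on A_70_P039657 ended without groin replicate 1 (0.98), groin replicate 2 (1.22), groin replicate 3 (1.21) or body side replicate 3 (0.65), without both arrays numbered 1 (1.09) or 3 (0.72), and with no filter on dim probes (adjusted p = 0.0503). The mean of both BAC5 probes differed by 1.15 ± 0.23 SE (adjusted p = 0.0021). Without scaling the differences were -0.40 and -0.44, and neither passed (adjusted p = 0.279 and 0.312).

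CATHL1B encodes the precursor of the cyclic dodecapeptide, a short bactenecin closed by a disulphide bond. Its probe A_70_P051376 gave processed signals of 36.3, 53.4 and 52.9 on groin arrays 1, 2 and 3 and of 29.6, 53.6 and 32.2 on body side arrays 1, 2 and 3. It was well above background everywhere except on body side replicate 1. The scaled levels were -6.66, -6.29 and -6.38 in the groin and -5.22, -5.26 and -5.13 on the body side, with no overlap. The difference was 1.24 ± 0.17 SE, or 2.36-fold (limma adjusted p = 0.000360). Without scaling it was -0.33 and did not pass (adjusted p = 0.380).

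The second CATHL1B probe, A_70_P051377, was well above background on 1 array of each site, replicate 2 in both cases, and so was not tested. Its processed signals were 24.2, 67.5 and 22.7 on groin arrays 1, 2 and 3 and 10.8, 24.7 and 14.6 on body side arrays 1, 2 and 3. The scaled levels, -7.25, -5.95 and -7.60 against -6.68, -6.37 and -6.28, overlapped, with means 0.49 apart. Entered with no filter on dim probes, that difference had a limma adjusted p of 0.327. The scanner software's error on the dimmest of these spots, on body side replicate 1, was 98.2% of the signal.

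**Figure D3:**
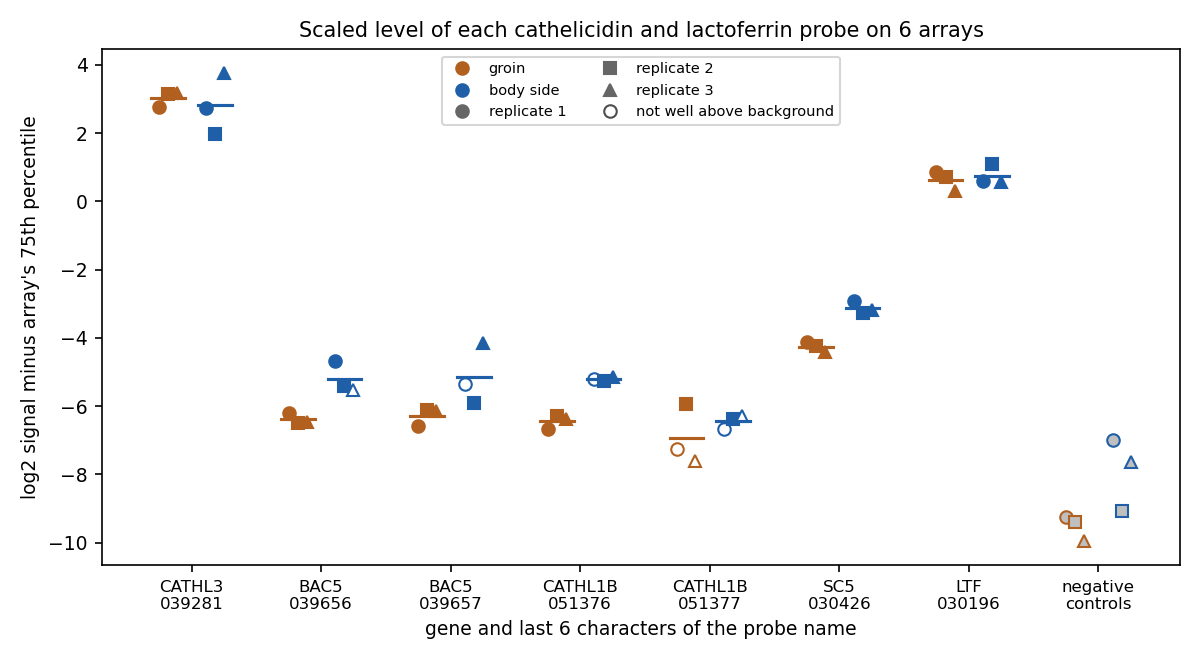
Scaled level (log2, relative to each array's 75th percentile) of the 7 probes on each array, with lines at the mean of each site and open points where the probe was not well above background; grey points are the mean of the 77 negative control spots. For SC5, both BAC5 probes and CATHL1B probe A_70_P051376 all body side points lie above all groin points, and the negative controls also lie higher on the body side, from -9.07 to -7.00 against -9.97 to -9.23.

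Of the 6 tested probes, 4 were called higher on the body side and none lower by limma (adjusted p under 0.05), and the same 4 were those under 0.05 before adjustment. Of all tested probes 69.9% were called, with 37.0% of all tested probes higher and 32.8% lower. The 4 probes were also those whose groups did not overlap, which held for 75.2% of all tested probes, and for 39.8% with the body side above. The median difference of the 6 probes was 1.13, and that of all tested probes 0.10. On the unscaled signal the medians were -0.44 and -1.47. Among the 1328 probes in the dimmest of 10 equal groups, where BAC5 and CATHL1B lay, the median difference was -0.40, 20.5% were called higher, and between 6.63% and 9.11% had a larger difference than these 3 probes. That group holds only probes that passed the filter, and these 3 passed by detection on the 3 groin arrays. With no filter on dim probes the median of all tested probes was 0.26. The effect of the filter on the dimmest group was not tested.

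SC5 was well above background on all 6 arrays, while the BAC5 and CATHL1B signals were close to it. The 24 readings of BAC5 and CATHL1B lay between 10.8 and 67.5, at 1.37 to 2.84 times the local background, and 17 of the 24 were well above it. The negative control spots had a median ratio to their local background between 1.16 and 1.35 on the 6 arrays. Their mean processed signal was nearly the same at both sites, 0.049 apart on the log2 scale, so that after subtraction of the 75th percentile they differed by 1.62, from -7.90 ± 1.06 on the body side to -9.53 ± 0.39 in the groin (SD over 3 arrays each). The 4 called probes differed by 1.13 to 1.24. The part of the array brightness in these 4 differences was not tested.

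**Figure D4:**
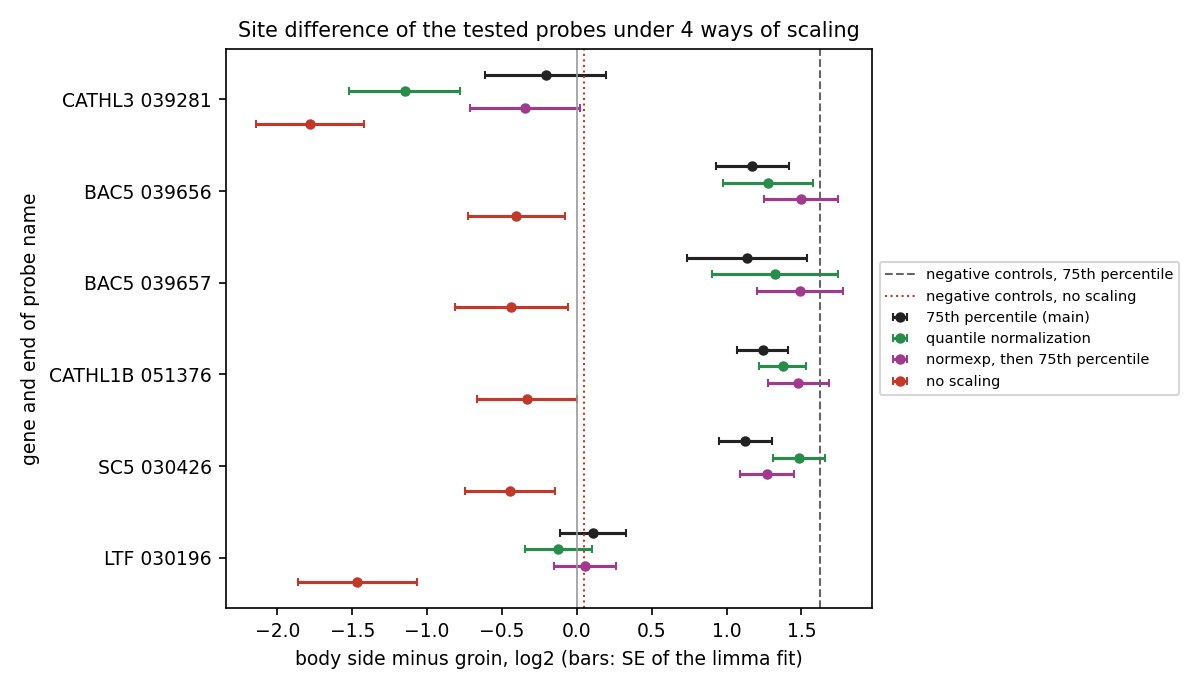
Site difference (body side minus groin, log2, with SE bars of the limma fit) of the 6 tested probes under 4 ways of scaling, with the mean difference of the negative control spots as vertical lines. SC5, BAC5 and CATHL1B lie at 1.13 or above with the main scaling, quantile normalization and normexp, and between -0.45 and -0.33 without; CATHL3 lies at -0.21 in the main scaling and at -1.15 with quantile normalization.

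The site difference of the members was also compared between the ram and the ewes. In the ram, the scaled difference was -0.03 for CATHL3, -0.28 for LTF, 1.19 for SC5, 1.52 and 1.24 for the BAC5 probes and 1.45 for CATHL1B. In the ewes the means differed by -0.30, 0.30, 1.09, 1.00, 1.09 and 1.14 in the same order. An interaction of site and sex in limma passed for 15 of 13250 fitted probes and for none of these 6 (lowest adjusted p = 0.908). With 1 ram, whose spread is not measured, and so few calls over all probes, this does not show whether the sexes differ in these genes.

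By 1 probe per gene, the members did not share 1 pattern over the 6 arrays. Likeness was measured as the root mean square (RMS) difference between centred scaled levels, with 1 probe per gene, and has no test. With these probes CATHL1B and SC5 were the closest pair, at 0.21, and BAC5, by its probe A_70_P039657, and LTF the farthest, at 0.88. This order depends on the BAC5 probe taken, and its other probe, A_70_P039656, was not entered. On body side arrays 1, 2 and 3 that probe was at -4.68, -5.41 and -5.53, against -5.36, -5.90 and -4.16 for A_70_P039657. Of 438 other genes with a symbol, BSP5 was nearest to CATHL1B (0.059), followed by MMP13 (0.13). CCR10 (0.089), TIMELESS (0.092) and PTGS2 (0.11) were nearest to SC5. SLC25A5 (0.14), CBX5 (0.15) and CYTH2 (0.19) were nearest to LTF. Around their own means, CATHL1B varied by 0.63, SC5 by 0.58 and LTF by only 0.24.

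For the other members the nearest genes lay at larger distances, to be read beside each member's own variation. The genes nearest to CATHL3 were HAND1 (0.40), MC5R (0.42) and CD1D (0.43), and CATHL3 itself varied by 0.55 around its mean. BAC5, by its probe A_70_P039657 alone, varied by 0.78 and was nearest to DCN and RPS26 (both at 0.41) and to ATP5MC2 (0.41).

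Other genes of antimicrobial defence moved both ways. Of the 40 entries of a list of antimicrobial and granule proteins, 6 genes besides the members had a named probe and were tested. On the body side 2 were higher, 1 was lower and 3 did not pass, with a median of -0.09. Among all 442 tested genes with a symbol, with 1 probe each, 45.5% were higher and 25.6% lower. PI3, which encodes the elastase inhibitor elafin, was 3.75-fold lower on the body side (log2 difference -1.91 ± 0.28 SE, limma adjusted p = 0.000797, from 5 values). GNLY, granulysin of cytotoxic lymphocytes, was 1.86-fold higher (0.89 ± 0.27, adjusted p = 0.0157). SLC11A1, a metal ion transporter of phagosomes, was 1.84-fold higher (0.88 ± 0.24, adjusted p = 0.0111), but its other probe differed by 0.016 and did not pass. The calls on GNLY and SLC11A1 ended without scaling, at -0.68 and -0.69, without both arrays numbered 2, at 0.86 and 0.93, and without both numbered 3, at 0.63 and 0.77. The call on GNLY also ended without groin replicate 2 (0.73), groin replicate 3 (0.87) or body side replicate 3 (0.65), and that on SLC11A1 with the mean of its probes (0.45).

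LYZ, lysozyme, differed by -0.88 ± 0.37 SE and did not pass (limma adjusted p = 0.0574), and its other probe gave -0.80. The first LYZ probe passed without body side replicate 2 (-1.29, adjusted p = 0.00402) and without both arrays numbered 2 (-1.20). With normexp (-0.83) and without scaling (-2.46) it passed too. At -0.88 it also passed with detection required on all 6 arrays, with robust estimation and a variance trend, and with a replicate block. LPO and SLPI did not pass either.

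Of 2 tested genes of iron handling, FTH1, the ferritin heavy chain that stores iron, was 2.14-fold higher, at scaled means of 7.48 ± 0.48 and 6.38 ± 0.21 (SD, n = 3 each, limma adjusted p = 0.00515). FTH1 was lower with cyclic loess (-0.61, adjusted p = 0.00725), with quantile normalization it was at -0.15, and without both arrays numbered 3 its call ended (0.97). Of its 2 other probes, 1 was called higher (1.07) and 1 did not pass (0.23). CP, the copper oxidase ceruloplasmin, differed by -0.68 ± 0.36 and did not pass, with normexp it was at 1.11 and called higher, and without body side replicate 2 it was at -1.11 and called lower. CP was well above background on 1 body side array.

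Genes that sense microbes also moved both ways. Of 15 tested genes of that list, 5 were higher, 3 lower and 7 did not pass, with a median of 0.02. Of the 442 tested genes with a symbol, with 1 probe each, 45.5% were higher and 25.6% lower. The count depends on the probe taken for a gene: TLR7 was counted as higher (1.31), but its other probe was called lower (-1.85). TLR2, TLR6 and CD14 were counted as not passing, and each had another probe called lower, at -1.74, -0.72 and -0.89. By adjusted p the leading genes were CXCL8, which attracts neutrophils (2.47), the cytokine TNF (1.60), the cytokine IL1A (-2.11) and the lipopolysaccharide receptor TLR4 (-1.52), given as log2 differences. Without scaling CXCL8 was at 0.89 and TNF at 0.03, and neither passed. Of 6 tested genes of milk and gland secretion, a list chosen because lactoferrin is secreted with milk, 2 were higher and 4 did not pass. CSN3, kappa-casein, differed by 1.38 (-0.19 without scaling) and the water channel AQP5 by 2.11 (0.53 without scaling, where it did not pass), and the other AQP5 probe did not pass (1.11, adjusted p = 0.0919). CSN1S2 (0.67), an alpha-casein, and PAEP (0.37), another milk protein, did not pass. CSN1S2 was called higher without groin replicate 1 (1.01), body side replicate 1 (0.86) or both arrays numbered 1 (1.21). With normexp (1.17) and median centring (1.13) it was called higher too. The call on PAEP depended on the scaling. PAEP was called higher with quantile normalization (0.80), normexp (0.64), cyclic loess (0.73), median centring (0.83) and the deposited values (0.79). It was also called higher without body side replicate 2 (0.49), and lower without scaling (-1.20).

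Neutrophil content could be followed through few genes. Of 16 neutrophil markers, 2 had a named probe, the integrin chains ITGB2 and ITGAM, which other leukocytes also carry, and neither passed. ITGB2 differed by -0.30 ± 0.21 SE (limma adjusted p = 0.222) and ITGAM by -0.06 ± 0.55 (adjusted p = 0.924). Their other probes were called lower, at -0.63 for ITGB2 and -3.02 for ITGAM. Without body side replicate 2 ITGB2 was called lower, at -0.47. ITGAM was called lower without body side replicate 1 (-0.79), without both arrays numbered 1 (-0.94) and with the mean of its probes (-1.54). Without scaling both genes were called lower, at -1.87 for ITGB2 and -1.64 for ITGAM, as were 9412 of 13278 tested probes. The summed linear level of the list, in units of the 75th percentile of the array, ran from 0.88 to 1.09 in the groin and from 0.70 to 0.98 on the body side. For 5 tested markers of monocytes, macrophages and dendritic cells, 2 were higher, 1 was lower and 2 did not pass, and the sums ran from 2.01 to 2.29 and from 1.97 to 2.58. For 4 tested markers of secretory gland epithelium, 3 were higher and 1 did not pass, with sums from 0.24 to 0.35 in the groin and from 0.77 to 0.92 on the body side. Without scaling the 3 were at 0.53 (AQP5, which did not pass), -0.19 (CSN3) and -0.96 (CFTR, a chloride channel well above background on 1 body side array). For the 4 tested hair follicle and epidermis genes the sums ran from 62 to 75 in the groin and from 436 to 821 on the body side. The part of these cell types in the levels of the cathelicidins and LTF was not tested.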

How the data were processed

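RNA of 6 skin samples was labelled with Cy3 and hybridised to 1 array each, per the labels' protocols. The submitters' processing notes name Agilent Feature Extraction, and the headers of the scanner files the authors deposited give its version, 10.5.1.1. The processed signal is an intensity corrected for background and trends within the array but not normalized between arrays, per the file headers. The authors' deposited series table holds log2 values, which on each array had r = 0.999 with processed signals after quantile normalization here; its median is 8.31 in every column, and its exact scaling is not given in the sources used here.

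Samples were grouped by the site in their titles. Controls and outlier-flagged spots (6 to 51 flags per array) were dropped, no spot was saturated, and for 50 probes printed 5 times the mean log2 was taken. Each array's 75th percentile of the processed signal was subtracted on the log2 scale. Testing needed detection (well above background) on the 3 arrays of either site and no fewer than 2 values there and at the other site; 13278 probes met this and 1730 did not. Differences came from limma 3.58.1 in R 4.3.3 (lmFit and eBayes, no block, Benjamini-Hochberg adjustment over all tested probes, threshold 0.05); the fit was tested on simulated data. The number of arrays limits the precision. RefSeq accessions named 734 probes; for list genes the probe with the highest mean stands for the gene.

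Replicate numbers were not treated as pairs in the main fit, since the labels do not tell which ewe a number stands for. Both arrays numbered 1 come from the ram, so these at least share an animal. The deviations of arrays with the same number had correlations of 0.16 for the ram and of 0.089 and -0.088 for the ewes. Groin array 3 and body side array 2 had 0.16. With 3 arrays a site, such correlations cannot decide whether arrays are paired by animal. A fit with a replicate block was run as an alternative.

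The members and gene lists were chosen with earlier results of these data known. Besides the members, the text names from each list of antimicrobial, iron, sensing, secretion and neutrophil genes up to 4 tested genes with the smallest adjusted p, and for each member the 3 genes nearest in pattern, of which 1 is not reported here; LPO, SLPI, TLR2, TLR6, TLR7, CD14, CFTR, the second probes of list genes and the tissue check genes fall outside this rule. Lists of red blood cell and dermal fibroblast markers were also fixed: of the former 1 tested gene was higher and 1 lower, and of the latter 1 was higher and 2 lower.

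Alternatives were normexp background correction (offset 50) on the median spot and local background intensity, quantile normalization, cyclic loess, median centring, no scaling, the deposited log2 values, no filter, detection required on all 6 arrays, robust estimation with a variance trend, each array or replicate number left out, a replicate block, the mean of all probes of a gene and, chosen after seeing the data, outlier spots kept.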

Additional observations from a re-analysis of the deposited data

How the results depend on the processing

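Of the member probes, 4 were called higher in the main fit, 0 without scaling and 1 with a filter on all 6 arrays, which by construction left only 3 member probes; under the other alternatives 3 or 4 were. Without scaling the members were at -1.78 (CATHL3), -0.40 and -0.44 (BAC5), -0.33 (CATHL1B), -0.45 (SC5) and -1.46 (LTF); other genes whose sign turned there were SLC11A1 (-0.69), GNLY (-0.68), FTH1 (-0.48), CSN3 (-0.19), CSN1S2 (-0.91) and PAEP (-1.20). With quantile normalization LTF was at -0.12, FTH1 at -0.15 and ITGAM at 0.21; with cyclic loess they were at -0.22, -0.61 and 0.23, and with the deposited values at -0.16, -0.15 and 0.22. Median centring gave 0.25 for CATHL3, 0.16 for ITGB2 and 0.39 for ITGAM, and normexp 1.11 for CP and 0.40 for ITGAM. Leaving out arrays moved CATHL3 between -0.68 and 0.28, LTF between -0.059 and 0.30, SC5 between 1.03 and 1.21, CATHL1B between 1.13 and 1.35, BAC5 probe A_70_P039656 between 0.91 and 1.33 and A_70_P039657 between 0.65 and 1.60, and ITGAM between -0.94 and 0.53. With the number of the titles as a replicate block, 9211 probes were called against 9279, and the same count of 4 member probes was called higher; LYZ (-0.88, adjusted p = 0.0154) and CP (-0.68, adjusted p = 0.0467) passed there. No slide or scan block could be fitted, since each scan held 1 site. The cause of these changes was not tested. Signal over background also limits BAC5 and CATHL1B: 17 of their 24 readings were well above it.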

Other observations

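The spots of the SC5 probe keep their places on the slide, and the first of the 5 was the dimmest on 5 of 6 arrays. A second probe of CSN2, beta-casein, differed by 5.22 ± 0.68 SE on the log2 scale (limma adjusted p = 0.000293), while the brighter CSN2 probe differed by 0.49 ± 0.37 and did not pass; this gene was picked after its values were seen.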
